A study of Mus musculus with 10 samples.

Results

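The genes described here encode cofactors that turn RBPJ, the DNA-binding protein at the end of the Notch pathway, into an activator or a repressor of transcription. They are the coactivator genes Maml1, Maml2, Maml3, Ep300 and Crebbp and the corepressor genes Spen, Ncor1, Fhl1 and L3mbtl3. Binding of RBPJ itself at these 9 genes was taken from chromatin immunoprecipitation and sequencing (ChIP-seq). A peak was counted at a gene when its centre lay in the gene body or in the regulatory domain, which is the stretch from 5 kb before to 1 kb after the 5' end, lengthened on each side by at most 1 Mb until it met such a stretch of another protein-coding gene. By this rule 14 of the 11094 RBPJ peaks belonged to the 9 genes.

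The cells were RD1 cells, named brain pericytes in the labels, which are mural cells that wrap capillaries. They were mouse cells, untreated, and grown in pericyte medium on collagen-coated dishes. The series has 10 samples in 5 groups of 2 replicates, all from these untreated cells: input chromatin without antibody, histone H3, H3K4me3, H3K4me1, and RBPJ, for which an antibody from Cell Signaling was used. The labels state neither strain nor age nor whether replicates were separate cultures. The study's methods describe cultured primary pericytes from the brains of young adult mice homozygous for a loxP-flanked Rbpj allele, passaged many times before use. The name RD1 is given by the labels alone, and they name no Cre treatment. RNA was not part of these files, so the cell type was not checked against its markers. The peak files of RBPJ replicates 1 and 2 were identical, so they count as 1 list. No file of the remaining 8 samples was used here. The list gives positions only. It therefore has no value per replicate, no test between samples was possible, and the shares and intervals below cover counting error only. Absence from the list does not show that RBPJ is absent from a gene.

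When Notch is not active, RBPJ on DNA can hold corepressors. Spen, also called SHARP, binds RBPJ and brings in Ncor1, a scaffold for histone deacetylases. Fhl1 is a LIM-domain gene with a splice form that binds RBPJ, and L3mbtl3 is a reader of methylated lysine that links RBPJ to the demethylase Kdm1a. When Notch is cleaved, its intracellular domain joins RBPJ, and the joint surface holds a Mastermind-like protein (Maml1, Maml2 or Maml3), which recruits the histone acetyltransferases Ep300 and Crebbp. The core sequence that RBPJ recognises is TGGGAA.

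The sequences below show parts of these peaks that hold the core sequence. They are given on GRCm38, 5' to 3' on the strand of the gene, and leave out untranslated regions. Capitals mark TGGGAA or the related TGAGAA on either strand (TTCCCA and TTCTCA when they lie on the opposite strand). The Spen, L3mbtl3 and Ncor1 stretches come from wide peaks at the starts of corepressor genes, and the Maml3 stretch from a wide peak over the start of a coactivator gene.
Spen, intron 1, chr4:141537148-141537308 (strand -): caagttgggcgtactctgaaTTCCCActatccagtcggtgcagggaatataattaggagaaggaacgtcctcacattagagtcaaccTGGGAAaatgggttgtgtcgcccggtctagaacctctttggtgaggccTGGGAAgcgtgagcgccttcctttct
Spen, upstream of the 5' end, chr4:141538598-141538657 (strand -): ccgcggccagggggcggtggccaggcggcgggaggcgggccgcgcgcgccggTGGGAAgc
L3mbtl3, near the 5' end, chr10:26375689-26375796 (strand -): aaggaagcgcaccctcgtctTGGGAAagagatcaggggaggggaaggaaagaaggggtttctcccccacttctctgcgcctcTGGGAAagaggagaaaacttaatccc
L3mbtl3, intron 1, chr10:26375006-26375051 (strand -): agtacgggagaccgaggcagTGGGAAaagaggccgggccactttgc
Ncor1, intronic site, chr11:62458074-62458119 (strand -): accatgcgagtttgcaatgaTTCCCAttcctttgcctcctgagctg
Maml3, intron 1, chr3:52103082-52103168 (strand -): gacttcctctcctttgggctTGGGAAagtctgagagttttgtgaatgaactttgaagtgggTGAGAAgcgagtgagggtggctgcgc

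Away from gene starts, narrow peaks at coactivator genes held the core sequence near their centre in 2 cases, and both peaks are printed whole with the same capitals.
Maml2, intron 1, whole peak, chr9:13425476-13425722 (strand +): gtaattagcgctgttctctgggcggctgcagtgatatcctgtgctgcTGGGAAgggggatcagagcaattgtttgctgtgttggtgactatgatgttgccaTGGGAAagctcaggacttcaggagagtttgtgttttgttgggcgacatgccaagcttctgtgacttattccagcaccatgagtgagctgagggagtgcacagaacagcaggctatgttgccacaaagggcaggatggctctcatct
Crebbp, upstream, whole peak, chr16:4271017-4271240 (strand -): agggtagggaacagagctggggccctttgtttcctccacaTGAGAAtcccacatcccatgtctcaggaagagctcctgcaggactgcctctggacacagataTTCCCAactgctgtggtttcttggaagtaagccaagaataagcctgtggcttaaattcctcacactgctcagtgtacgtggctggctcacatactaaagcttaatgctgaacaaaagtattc

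The peak at the start of Maml1 held neither TGGGAA nor TGAGAA. Its upstream part is shown for contrast, and here capitals mark CCGGAAG, the core bound by ETS factors, CCCGCCC, bound by SP and KLF factors, and ATTGG, which is CCAAT on the opposite strand and is bound by NF-Y.
Maml1, upstream of the 5' end, chr11:50292312-50292605 (strand -): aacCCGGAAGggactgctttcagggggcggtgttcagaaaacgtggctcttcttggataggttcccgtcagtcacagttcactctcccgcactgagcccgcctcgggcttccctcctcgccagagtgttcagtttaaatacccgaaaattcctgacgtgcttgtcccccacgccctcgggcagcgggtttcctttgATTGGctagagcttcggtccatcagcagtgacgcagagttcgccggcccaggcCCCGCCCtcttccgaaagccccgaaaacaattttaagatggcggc

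Of the 9 cofactor genes, 8 had at least 1 RBPJ peak, against 46.7% of all 21938 protein-coding genes and 55.3% of those outside chromosomes 4, 7, X and Y. Fhl1 had no peak. The second share leaves out the chromosomes of Spen (4) and Fhl1 (X). Long regions catch more peaks, and the regions of these genes were long: their median length was 222 kb, and that of all genes was 93.8 kb. Among genes whose region was within 20% of the same length, the share with a peak ran from 43.4% for the length of Maml1 to 65.8% for that of Maml3. All 5 coactivator genes had a peak, with 11 peaks together, and 3 of the 4 corepressor genes had 1 peak each.

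**Figure D1:**
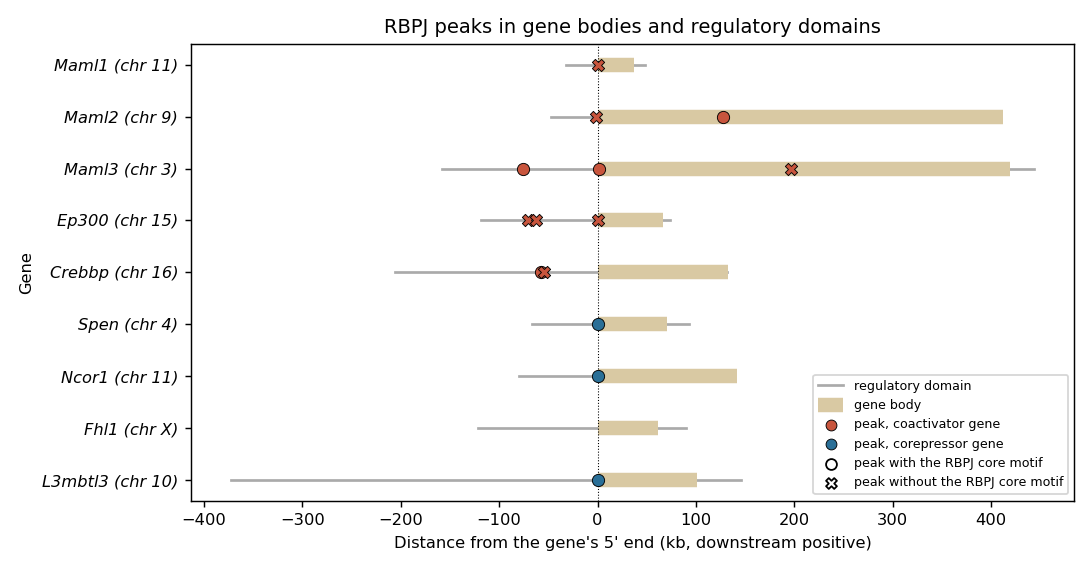
Position of every RBPJ peak (circles, with the core motif TGGGAA; crosses, without it) in kb from the 5' end of each of the 9 genes, with the gene body as a bar and the regulatory domain as a line. The corepressor genes Spen, Ncor1 and L3mbtl3 have a single peak at the 5' end, as does the coactivator gene Maml1. Ep300 and Maml3 have a peak at the 5' end and others farther away. Peaks at the coactivator genes lie up to 196 kb away, and Fhl1 has none.

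Where the peaks lay differed from gene to gene. The centre was within 1 kb of a coding transcript start of the same gene for 5 of the 9 genes (Maml1, Ep300, Spen, Ncor1 and L3mbtl3), against 27.6% of all protein-coding genes and 33.4% of those outside chromosomes 4, 7, X and Y. The latter share again leaves out the chromosomes of Spen and Fhl1. A peak covered a coding start in 5 of the 9 (Maml1, Maml3, Spen, Ncor1 and L3mbtl3; 26.9% of all genes), and 6 of the 9 had a peak centred from 5 kb before to 1 kb after the 5' end (27.1% of all genes). A limit of 500 bp left 3 (Maml1, Ncor1 and L3mbtl3; 23.7% of all genes), without Spen and Ep300, and a limit of 5 kb gave 7, with Maml2 and Maml3 added (31.9% of all genes). Crebbp had peaks only far upstream. Of the 14 peaks, 3 were centred in exon 1 (18% of all peaks), 5 in intron 1 (21.6%) and 6 outside coding transcripts (41.7%). None was centred in a later exon (2.78% of all peaks) or a later intron (15.9%).

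Spen lies on chromosome 4 (141467890 to 141538597, minus strand; ENSMUSG00000040761.16) and had 1 peak, from 141536673 to 141539077. It was 2405 bp wide, wider than or as wide as 92.2% of the 5489 peaks whose centre lay within 1 kb of a coding start (called proximal here). It covered both coding starts of the gene and was centred 722 bp after the 5' end, in intron 1. The surroundings held few peaks. Chromosome 4 had 158 peaks in all, and its mean density would give 0.161 peaks in the Spen region. A peak was present in the region of 14.7% of the genes on this chromosome and within 1 kb of a start in 5.2%, whereas 52.9% of genes with regions of like length on any chromosome had one. The nearest peaks were 397 kb and 559 kb away, and 4.27% of all peaks stood at least as far from both neighbours (32.9% of those on chromosome 4).

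The Spen peak held 7 TGGGAA sites. Among the 580 proximal peaks within 20% of its width the median was 2 sites, and 5 of them, or 0.862%, held at least 7, the Spen peak included. The sites were not at the peak's centre, and none lay in its central 200 bp. They started 403 and 8 bp before the 5' end and 379, 1309, 1376, 1424 and 1750 bp after it. The site at 379 bp lay in a coding exon, and those from 1309 bp on in intron 1. The stretch printed above holds 3 of them, whose starts are 48 and 67 bp apart. Of the 7 sites, 5 were on the strand of the gene. A further 2 TGAGAA sites lay 1186 and 1214 bp after the 5' end. Peaks on chromosome 4 held TGGGAA more often than the list as a whole, in 80.4% of 158 against 64.9% of 11094, and 9 of the 158 held at least 7 sites. Whether this bears on the number at Spen was not tested.

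L3mbtl3 (chromosome 10, 26274468 to 26375971, minus strand; ENSMUSG00000039089.15) also had 1 peak, from 26374017 to 26376150, with a width of 2134 bp. The centre was 888 bp after the 5' end of the gene and 102 bp from the nearest coding start, in intron 1. This peak held 4 TGGGAA sites, all on the strand of the gene, 195, 257, 940 and 1374 bp after the 5' end. Of the 665 proximal peaks of like width, 18.2% held at least 4, and the median was 2. The site at 940 bp was 57 bp from the peak's centre, which made it the only site of a proximal peak at these genes that was in the central 200 bp. The site at 257 bp was soft-masked as repeat sequence. The domain of L3mbtl3 was long, and chromosomal density would give 2.53 peaks in its 518 kb region, where there was 1. Of the genes on chromosome 10, 55.8% had a peak in their region, and of genes with regions of like length 64.1%.

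Ncor1 (chromosome 11, 62316426 to 62458541, minus strand; ENSMUSG00000018501.17) had its peak from 62456935 to 62458647. It was 1713 bp wide, covered 4 coding starts of Ncor1, and was centred 15 bp from the nearest of them. The start of Pigl, a gene for an enzyme of the GPI-anchor pathway on the opposite strand, lay under the same peak, 669 bp from its centre, so the peak belongs to both genes by position. It held 2 TGGGAA sites, at 442 and 912 bp after the 5' end, the latter in an untranslated region. Of 729 proximal peaks of like width, 48.6% held at least 2. Ncor1 has 14 coding starts, and the others, up to 137320 bp after the 5' end, had no peak centred within 1 kb. A peak from 62305958 to 62306271 was centred 10.3 kb past the far edge of the gene and was not counted. Of genes with regions like that of Ncor1, 57.3% had a peak.

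Fhl1 (chromosome X, 56731787 to 56793346; ENSMUSG00000023092.16) had no peak in its 211 kb region. It has 9 coding starts, at 0 to 342 bp and at 47650 to 55938 bp from the 5' end, and neither cluster had one. Chromosome X held 144 peaks, which at even density gives 0.177 for this region, and 19.1% of its genes had a peak in their region and 6.22% within 1 kb of a start. Among genes with regions of like length on any chromosome the share was 56.9%. The closest peak on the left was centred 3340 kb beyond the region and that on the right 232 kb. Within 1 kb of the 5' end the sequence had 2 TGGGAA sites, 1 on each side of it. The median over all protein-coding genes was also 2.

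**Figure D2:**
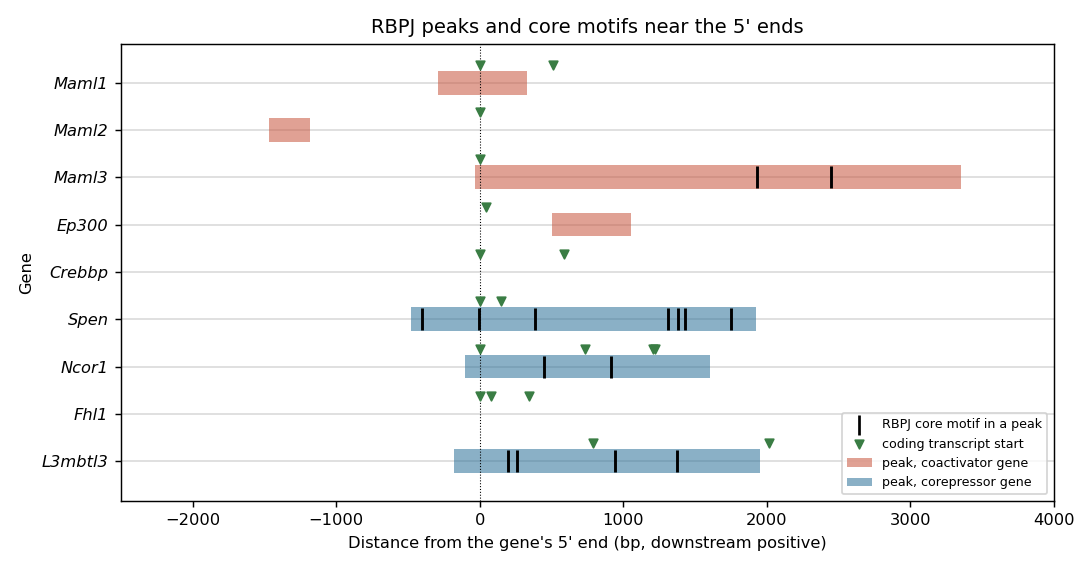
RBPJ peaks (bars) in bp from the 5' end of each gene, with TGGGAA sites inside peaks as black ticks and coding transcript starts as green triangles. The 3 corepressor peaks are 1713 to 2405 bp wide and hold 2 to 7 sites, the Maml1 and Ep300 peaks are 621 and 552 bp wide and hold 0, the Maml3 peak over the start is 3389 bp wide and holds 2, the Maml2 peak before the start is 287 bp wide and holds 0, and Crebbp and Fhl1 have no peak in this window.

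Among the Mastermind-like genes, the peak sat at the start in Maml1, beside it in Maml2 and over a long stretch of intron 1 in Maml3. Maml1 (chromosome 11, 50255634 to 50292311, minus strand; ENSMUSG00000050567.16) had a single peak from 50291985 to 50292605, 621 bp wide and centred 16 bp after the 5' end, in exon 1. It held 0 TGGGAA sites, and 44.3% of the 1113 proximal peaks of like width held at least 1. On chromosome 11, 55.2% of genes had a peak in their region. The sequence around it did hold the motif, with 3 sites within 1 kb of the 5' end, all of them outside the peak. The median over all protein-coding genes was 2 sites within that distance.

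Maml2 (chromosome 9, 13297957 to 13709388; ENSMUSG00000031925.17) carried a narrow peak (13296490 to 13296776, 287 bp) that lay 1324 bp before the 5' end and held 0 TGGGAA sites. A second one, from 13425476 to 13425722, was 247 bp wide and lay 128 kb into the gene, in intron 1 of 5 exons. It held 2 TGGGAA sites on the strand of the gene, with starts 54 bp apart, and both lay in the central 200 bp. Of 979 distal peaks of like width, 14.2% held at least 2. This peak also fell in the domain of the gene model Gm17571. On chromosome 9, 51% of genes had a peak in their region, and of genes with regions like that of Maml2, 64.7%.

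Maml3 (chromosome 3, 51685907 to 52105076, minus strand; ENSMUSG00000061143.15) had 3 peaks. The widest of all 14, with 3389 bp, ran from 52101723 to 52105111. It covered the 5' end of Maml3 but extended mostly into intron 1, so that its centre was 1659 bp downstream and it did not count as proximal. It held 2 TGGGAA sites, at 1928 and 2448 bp, and 3 TGAGAA sites. Distal peaks of like width had a median of 4 TGGGAA sites, and 87.7% of 324 held at least 2. A peak of 1552 bp (52179606 to 52181157) was centred 75.3 kb upstream in a long noncoding RNA gene, Gm37202, 409 bp from the start of another noncoding RNA, Gm30074. It held 2 TGGGAA sites, 1491 bp apart, and lay in the domain of Foxo1 as well. A narrow peak of 225 bp (51908512 to 51908736) lay 196 kb into the gene, still in intron 1 and inside the gene model Gm10728, 192 bp from its start, with 0 sites. The peaks inside the gene also fell in the domain of Mgst2. On chromosome 3, 58.9% of genes had a peak.

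The acetyltransferase genes Ep300 and Crebbp, which are close paralogs, differed at their starts. Ep300 (chromosome 15, 81585351 to 81652077; ENSMUSG00000055024.12) had its nearest peak (81585851 to 81586402, 552 bp) 775 bp after the 5' end, in the untranslated part of exon 1 and 7 bp from the start of Gm23880, annotated as a miRNA gene. It held 0 TGGGAA sites and 1 TGAGAA site, and 41.8% of the 1032 proximal peaks of like width held at least 1 TGGGAA. There were 0 TGGGAA sites anywhere within 1 kb of the 5' end of Ep300, where 84.9% of all genes had at least 1. Upstream there were 2 more peaks, at 71.0 kb (81514227 to 81514485, 259 bp) and 62.3 kb (81522404 to 81523689, 1286 bp), 7918 bp apart and without TGGGAA. Of 443 distal peaks as wide as the second, 84% held the motif. Both fell in the domain of Rbx1, a ubiquitin ligase subunit gene. With 3 peaks in 192 kb, the region of Ep300 had 15.7 peaks per Mb, against 5.76 on its chromosome, and 11.6% of genes with like regions had 3 or more. At least 1 peak was present for 55.5% of those genes and for 63.9% of genes on chromosome 15.

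Crebbp (chromosome 16, 4081328 to 4213997, minus strand; ENSMUSG00000022521.10) had no peak within 5 kb of any of its 6 coding starts. The sequence within 1 kb of its 5' end was rich in G and C, at 69.6%, with a ratio of observed to expected CpG of 0.919, where genes with a peak within 1 kb had medians of 54.6% and 0.658. Its 2 peaks lay 54.3 kb (4268199 to 4268460, 262 bp) and 57.1 kb (4271017 to 4271240, 224 bp) upstream, 2556 bp apart and also in the domain of Adcy9, an adenylate cyclase gene. The farther one held 1 TGGGAA site 5 bp from its centre and 1 TGAGAA site, and had a CpG ratio of 0.0756. The nearer one held neither. A peak was present in the region of 59.8% of genes on chromosome 16 and of 63.3% of genes with regions of like length.

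In all, 7 of the 14 peaks held TGGGAA (50%, 95% exact binomial interval 23 to 77%), against 64.9% of all peaks. The 14 peaks had 20 sites, of which 13 lay in the 3 corepressor peaks and 0 in the proximal coactivator peaks. Per length, that is 2.08 sites per kb in the corepressor peaks, which were proximal, against 1.04 per kb in all proximal peaks. By peak it was 2.91 per kb at Spen, 1.87 at L3mbtl3 and 1.17 at Ncor1, and Spen alone held 7 of the 13 sites. The 9 distal coactivator peaks had 0.905 sites per kb, against 1.43 in all distal peaks, and 4 of them held TGGGAA (44.4%, interval 13.7 to 78.8%), against 71.6% of all distal peaks. Under 300 bp, 2 of 6 held it (33.3%, interval 4.33 to 77.7%), against 56% of all 1356 distal peaks of that size. The 3 corepressor peaks were wider than the 2 proximal coactivator peaks, while the Maml3 peak, which covers the start of a coactivator gene but is not proximal by its centre, was wider still, with 3389 bp and 2 sites. These differences were not tested. In the central 200 bp, 3 of the 14 peaks held TGGGAA (21.4%, against 25.8% of all peaks). Of the 20 sites, 6 were preceded by G, which makes the longer form GTGGGAA, and 2 were soft-masked. The longer form was in 4 of the 14 peaks and in 29.3% of all peaks. No facing pair of TGGGAA or TGAGAA with 11 to 21 bp between was found in the 14 peaks, and 2.65% of all peaks held one.

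**Figure D3:**
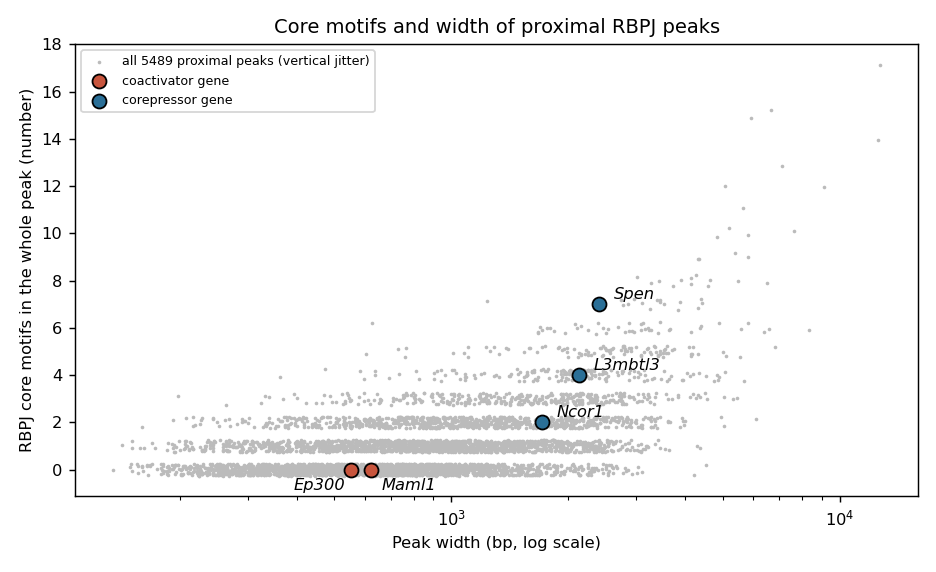
Number of TGGGAA sites in the whole peak against peak width in bp (log scale) for all 5489 proximal RBPJ peaks (grey, shifted slightly up or down) and the 5 proximal peaks at cofactor genes (coloured). The Spen peak, with 7 sites in 2405 bp, lies at the upper edge of the peaks of its width. The Ep300 and Maml1 peaks have 0, which is also the median of proximal peaks of like width.

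CCCGCCC was present in 4 of the 5 proximal peaks (73.1% of all proximal peaks) and CCAAT in 4 of 5 (58.6%). The L3mbtl3 peak had 6 CCCGCCC sites, 4 of them in the central 200 bp, and the Spen peak had 4. CCGGAAG was found in 3 of the 14 peaks (19.3% of all peaks), those at Maml1 and Ncor1 and the wide one at Maml3. GCATGCG, the core bound by NRF1, was found only in the Spen peak, with 2 sites, and 11.2% of all proximal peaks held it. TGANTCA, bound by AP-1, was in 0 of the 9 distal peaks at these genes, where 44.4% of all distal peaks held it in the whole peak and 17.8% in the central 200 bp. TGACGTC, bound by CREB family factors, was in 0 of the 14 (6.38% of all peaks). TGTGGTT, bound by RUNX factors, was found in 1 of the 14, the Crebbp peak with TGGGAA (18% of all peaks). GGAATG, bound by TEAD factors, was found in 5 of the 14 (39.4% of all peaks). Of the 9 distal peaks, 6 were under 300 bp wide, which limits how many motifs they can hold. All searches used both strands, and a match shows only that the letters are present.

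The GC content of the 14 peaks ran from 48.7% to 72.5%. The 5 proximal peaks had a median of 67.1%, against 63.4% for all proximal peaks, and the 9 distal ones 59%, against 49.6% for all distal peaks. RefSeq promoters (GRCm38.p6, from 250 bp before to 50 bp after a start) were matched for all 9 genes, 13 promoters in all. TGGGAA was found in 5 of the 13, and in 25.6% of all 32851 promoters. They belonged to Maml2, Maml3, Spen, Ncor1 and Fhl1, some with a peak over them and some without.

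Counted against density, the regions of the 9 genes would hold 12.5 peaks if peaks were spread evenly over each chromosome, where there were 14. Maml1, Maml3, Ep300, Crebbp and Spen had more than that number, and Maml2, Ncor1, L3mbtl3 and Fhl1 had fewer. The ratio was highest at Spen, with 1 peak against 0.161. The mean density of chromosome 4 was 1.01 peaks per Mb, so a single peak in a region of this length gives a high ratio there.

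**Figure D4:**
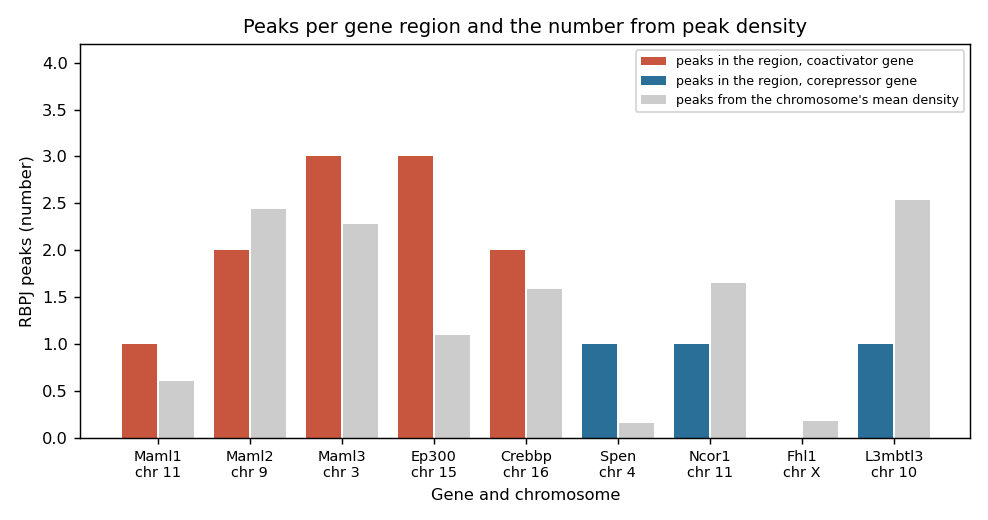
Number of RBPJ peaks in the region of each gene (coloured) and the number that the mean peak density of its chromosome gives for a region of that length (grey). Spen has 1 peak against 0.161 and Ep300 has 3 against 1.1, while L3mbtl3 has 1 against 2.53.

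The paralogs of the cofactor genes were counted by the same rule. Among the paralogs of Spen, Rbm15 had 1 peak, 282 bp after its 5' end, and Rbm15b had 2. Of the LIM-domain paralogs of Fhl1, Fhl2 had 3 peaks, the nearest 28240 bp into the gene, Fhl3 and Fhl4 had 1 each, and Fhl5 had none. L3mbtl1 had 1 peak, L3mbtl2 had 2 and L3mbtl4 had none in 813 kb. Mamld1, a Mastermind-like gene on chromosome X, had 1 peak, far upstream of its 5' end. Of these 10 paralogs, 8 had a peak in their region (46.7% of all genes) and 5 had one within 1 kb of a start (27.6% of all genes).

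Genes for other partners of the same complexes were counted in 4 lists. Of 4 genes for partners of Ncor1 in its complex, 2 had a peak (Tbl1x and Tbl1xr1), and Hdac3, its deacetylase, and Gps2 had none. Of 8 genes for partners of Spen and histone deacetylases, 6 had one, without Hdac1 and Cir1. Kmt2d, a histone methyltransferase gene, had 2 peaks with 11 TGGGAA sites together in a 61.9 kb region, and these were not set against peaks of like width. Of 10 genes listed as other cofactors of RBPJ or the Notch intracellular domain, some of which act through partner proteins, 7 had a peak and all 7 had one within 1 kb of a start, while Snw1, Kdm1a and Tle2 had none. Tle3, a Groucho corepressor gene, had 14 peaks in its 1120 kb region, and 7 of them held TGGGAA. It lies on chromosome 9, whose mean density was 5.33 peaks per Mb. Of 6 genes for other acetyltransferases and the kinase module of Mediator, 2 had a peak (Cdk8 and Med12) and Kat2a, Kat2b, Kat5 and Ccnc had none. With the paralogs, 25 of 38 genes had a peak in their region (65.8%, against 46.7% of all genes and 55.3% of those outside chromosomes 4, 7, X and Y) and 21 had one within 1 kb of a start (55.3%, against 27.6% of all genes). Of the 10 on chromosomes 4, 7 and X, where 13.8% of all genes had a peak in their region, 6 had one. Of the 28 on other chromosomes, 19 had one (67.9%). The lists were described by counts only, and differences in region length were not adjusted for.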

How the data were processed

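RBPJ ChIP-seq of untreated RD1 cells was analysed from the deposited peak files of 2 RBPJ samples, grouped by title. According to the study's methods, reads were mapped by the authors with bowtie (genome build GRCm38), duplicates were dropped, and MACS2 and PeakRanger calls of the 2 replicates were combined: the authors merged peaks within 2 kb, kept those with at least 3 overlapping calls and left out blacklisted stretches. In these files, the deposited values are positions in bp of 1 consensus list, without a score, so weak and strong sites look alike and a merged interval need not be centred on the bound site. Sequencing depth is not given in the sources used here.

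Starts were read as counted from 1. Genes were the 21938 protein-coding genes of GENCODE M21 (GRCm38), and 0 peaks ran past a chromosome end. Motifs were searched in the RefSeq copy of GRCm38.p6. Domains and motif counts were tested on simulated data. No statistical test was run, and intervals are 95% exact binomial intervals. The 9 genes and the related lists were chosen with earlier results of these data known. Named were all 9 genes, their paralogs, neighbours that share a peak, and listed genes without a peak. A gene of the related lists is not reported here, and the counts leave it out. Tbl1x, Tbl1xr1, Kmt2d, Tle3, Cdk8 and Med12 were named after their values were seen. Software versions were matplotlib 3.10.9, scipy 1.17.1, pandas 2.3.3 and numpy 2.4.6 under Python 3.11.15.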

Additional observations from a re-analysis of the deposited data

How the results depend on the processing

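Leaving out RBPJ replicate 1 or RBPJ replicate 2 changed nothing, with 8 genes with a peak, 14 peaks, 5 genes with a peak within 1 kb of a start and 50% of peaks with TGGGAA, since either file holds the full list. No paired analysis was possible because no test was run and the RBPJ replicates share 1 list. The number of genes with a peak was 6 to 8 in the 8 alternatives run. The number of genes with a peak within 1 kb of a start fell to 3 with a limit of 500 bp, which Ep300 and Spen did not meet, and was 5 to 7 in the others. The number of peaks fell from 14 to 6 with the basal domain alone, to 8 with the gene body alone, to 8 with peaks of at least 500 bp and to 5 with peaks in the region of no other gene (an alternative chosen after seeing the data, as was leaving out soft-masked sites), each of which keeps fewer peaks by construction. The share of peaks with TGGGAA fell from 50% to 21.4% in the central 200 bp and to 14.3% in the central 100 bp, which are shorter windows. In the other alternatives it ran from 28.6% for GTGGGAA, a longer motif held by 29.3% of all peaks, to 62.5%. These lay within the binomial interval for TGGGAA, but that interval, 23 to 77%, is so wide that this says little. With positions only, the strength of a peak, its summit and the spread between replicates could not be given.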
